A study of Rattus norvegicus with 3 samples.

Results

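The cold-inducible RNA-binding protein genes Rbm3 and Cirbp, the uncoupling protein genes Ucp1, Ucp2 and Ucp3, and the thermogenic genes Ppargc1a, Dio2 and Cidea were examined in rat adrenal medulla after cold exposure. All probe sets whose platform annotation names 1 of these 8 genes and no other were taken, which gave 13 probe sets out of 31042 for genes, and 8 genes out of 14217 named by a single symbol. The tissue came from rats kept in the cold for 1 day (2 arrays, replicates a and b) or for 7 days (1 array), and total RNA was hybridised to 1 short oligonucleotide array per sample. The sample labels put Multiple Organs before the tissue name, which was read as a project name, and the arrays hold signal of both the medulla and the surrounding cortex. The labels give no strain, sex, age, temperature or genotype. They also leave unsaid whether the 1-day arrays stem from separate animals, and the p-values measure only the spread between these arrays, which may be technical. Unexposed rats are not analysed here. These data therefore show where the genes were detected in cold-exposed tissue and how 7 days compared with 1 day, and not whether cold induced them.

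RBM3 and CIRBP are small RNA-binding proteins, related in sequence, whose transcripts accumulate when cells or tissues are mildly cooled. UCP1 lets protons leak back across the inner mitochondrial membrane of brown fat and so releases heat, while UCP2 and UCP3 are relatives found in many tissues and mainly in skeletal muscle, respectively. In brown fat, noradrenaline acting through cyclic AMP switches on Ucp1, Dio2, which encodes the deiodinase that makes active thyroid hormone inside the cell, and Ppargc1a, which encodes the coactivator PGC-1alpha of mitochondrial genes. Cidea encodes a lipid droplet protein best known as a brown fat marker. The adrenal medulla answers cold by releasing adrenaline and noradrenaline. The gland is embedded in fat, so fat cell genes were read beside these genes.

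All 8 genes have a promoter window of 300 bases (250 before and 50 after the start) in RefSeq, build GRCr8. The windows were searched on both strands for TCCCCGCC, described as the mild-cold response element of Cirbp, for TGACGTCA, the cyclic AMP response element, and for its core TGACG, which overlaps the full element on each strand. The stretches of Cirbp, Ucp1 and Ppargc1a are shown because they hold a match, and that of Rbm3 for comparison with Cirbp. Those of Cirbp, Rbm3 and Ucp1 end before the outermost annotated start of the gene. Capitals mark the matches, and the sequences run 5′ to 3′.
Cirbp, chr7:10189624-10189725, minus strand: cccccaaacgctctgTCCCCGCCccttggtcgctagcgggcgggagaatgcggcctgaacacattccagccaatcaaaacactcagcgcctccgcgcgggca
Rbm3, chrX:17020655-17020862, plus strand: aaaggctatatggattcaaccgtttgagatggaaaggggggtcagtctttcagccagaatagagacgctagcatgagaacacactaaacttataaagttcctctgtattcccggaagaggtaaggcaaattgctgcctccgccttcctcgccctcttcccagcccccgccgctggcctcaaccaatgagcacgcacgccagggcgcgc
Ucp1, chr19:41721422-41721671, minus strand: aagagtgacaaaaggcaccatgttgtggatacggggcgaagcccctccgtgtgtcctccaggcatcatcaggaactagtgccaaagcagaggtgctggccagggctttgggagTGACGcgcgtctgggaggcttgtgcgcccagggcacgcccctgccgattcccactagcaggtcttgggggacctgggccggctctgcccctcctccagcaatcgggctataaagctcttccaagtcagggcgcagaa
Ppargc1a, 30 bases at chr14:63634116-63634145, plus strand: ctgcctcggagTGACGTCAggagtttgagc

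The Cirbp window held TCCCCGCC at bases -235 to -228 from the start, and the windows of the other 7 genes held none. Positions count from the start on which each window was built. For Cirbp and Rbm3 the outermost annotated start lies upstream of that start, so a match is nearer to it or beyond it. This motif occurred in 4.79% of all 33469 windows. TGACGTCA occurred in 1.83% of windows and, among these genes, in the Ppargc1a window alone, at -181 to -174. Its core TGACG, present in 21.2% of windows, was found in Ucp1 at -137 to -133, in Rbm3 on the minus strand at -25 to -21, in Cirbp at 30 to 34 after the start, and in Ppargc1a, where it overlapped the full element and occurred again downstream of the start. The windows of Ucp2, Ucp3, Dio2 and Cidea held none of the 3 motifs. A match describes the letters in the window and does not show a bound site. A window without a match does not show that the gene lacks the element, since sequence outside the window was not searched.

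The 3 arrays differed in quality before any gene was compared, and 1-day array a stood apart. The 3′ to 5′ ratio of the beta-actin control probe sets, a measure of RNA integrity and copying, was 231 on array a, 6.11 on array b and 8.87 on the 7-day array. The same ratio for GAPDH set array a apart less strongly, at 5.02 against 1.79 on array b and 1.87 on the 7-day array. To set a background level, 62 probe sets of 58 genes of other tissues were used (odorant, vomeronasal and taste receptors, and genes of the lens, retina, sperm, milk, tooth enamel and pituitary hormones). Their median intensity was 520 on array a, 72.5 on array b and 145 at 7 days, and their 95th percentile was 1900, 564 and 757. A probe set was called above background on an array when its intensity exceeded that array's 95th percentile. Of the markers of the labelled tissue, 9 of 10 chromaffin cell markers were above background on all 3 arrays, among them Th, Dbh and Pnmt. So were 8 of 8 markers of the adrenal cortex, the outer layer of the gland, against 48.0% of all genes. The exception, Slc18a1, stood at 32.0 and 18.1 times background on array b and the 7-day array but at 0.732 on array a.

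Of the 13 probe sets, 4 were above background on all 3 arrays, against 32.3% of all gene probe sets, and they belonged to Rbm3, Cirbp, Ucp2 and Cidea. On single arrays the counts were 4 on array a, 8 on array b and 7 on the 7-day array, where the shares of all gene probe sets were 42.5%, 50.9% and 47.4%. Both Ucp3 probe sets were above background on array b and the 7-day array but not on array a. With the 99th percentile of the panel as the level, Ucp3 1387681_at and Cirbp 1369083_at were above it on 0 arrays, and Ucp3 1382958_at still on 2. The probe sets of Ucp1, Ppargc1a and Dio2, 5 in all, were above background on no array. With each gene read by its probe set of highest mean, 3 of 8 genes were above background on no array, against 27.3% of all genes. A transcript at or below this level may be absent, rare or poorly caught by its probes, which these arrays cannot tell apart.

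**Figure D1:**
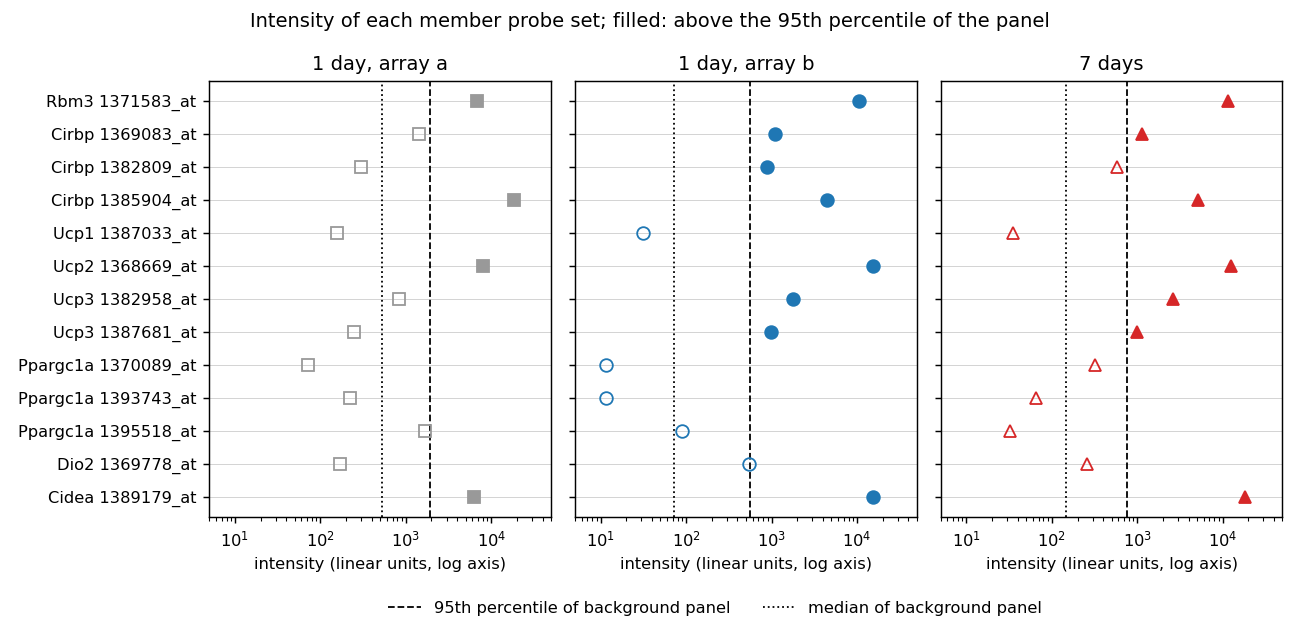
Intensity of the 13 probe sets (log axis) on each array, with dotted and dashed lines at the median and the 95th percentile of the 62 background probe sets, and filled symbols above the latter. Rbm3, Ucp2, Cidea and Cirbp 1385904_at lie to the right of the dashed line on all 3 arrays, while Ucp1 lies left of the dotted line on all 3.

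Rbm3 was clearly detected and read slightly higher at 7 days. Its single probe set, 1371583_at, had an intensity of 6767 and 10676 on the 1-day arrays a and b and 11574 at 7 days, and log2(intensity + 16) of 12.73, 13.38 and 13.50. These are 3.56, 18.9 and 15.3 times the background level of each array. The 7-day value was 0.12 above array b and 0.77 above array a on the log2 scale, while the 1-day arrays were 0.66 apart. In limma the difference from the 1-day mean was 0.44 ± 0.95 (SE). It was smaller than its SE and than the 0.66 between the 1-day arrays. Median centring turned the difference from array b to -0.07.

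The 3 Cirbp probe sets did not give 1 answer. The brightest, 1385904_at, read 18421 on array a, 4445 on array b and 5076 on the 7-day array, so that array a was the high one. 1369083_at read 1445, 1104 and 1136, with array a below its own background level and the others 1.96 and 1.5 times above theirs. 1382809_at read 297, 889 and 587, with array a the lowest and array b alone above background. The 1-day arrays thus differed by 2.05, 0.38 and -1.53 (log2, array a minus array b) on probe sets annotated to the same gene.

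Between array b and the 7-day array the Cirbp probe sets lay closer, at 0.19, 0.04 and -0.59 (log2, 7 days minus array b). The 2 probe sets kept for testing had limma differences of -0.83 ± 0.94 and -0.15 ± 1.46 (SE) from the 1-day mean, both with an adjusted p of 1.00. For 1369083_at the 0.04 became -0.14 after median centring and -0.03 without the intensity trend. Cirbp was therefore detected in this tissue, with no difference between 7 days and 1 day larger than the spread between arrays or between its probe sets.

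Ucp2, which neighbours Ucp3 on chromosome 1, was above background on each array, alone among the uncoupling genes. Its probe set 1368669_at read 8014 on array a, 15603 on array b and 12406 at 7 days, at 4.22, 27.7 and 16.4 times background. On the log2 scale these were 12.97, 13.93 and 13.60, so the 7-day array fell between the 1-day arrays, 0.63 above array a and at -0.33 relative to array b. Limma gave 0.15 ± 0.96 (SE) against the 1-day mean (adjusted p = 1.00). Ucp2 is abundant in macrophages and lymphocytes, and the summed intensity of 11 markers of those cells ran in the same order, at 16169, 23966 and 19826, as did that of the fat cell markers and of 2 of the pathway lists described further on (cold-shock partners and thyroid hormone genes). Of these 11, 2 were above background on all 3 arrays, against 48.0% of all genes, and 3, the lymphocyte genes Cd3e, Cd3d and Cd79b, on none, which is the share of all genes (27.3%). The part of such cells in the Ucp2 values was not tested, and in whole tissue fewer cells of a type and less RNA per cell cannot be told apart.

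Ucp3 read higher at 7 days than on both 1-day arrays on each of its probe sets. On array a neither was above background, at 0.433 times its level for 1382958_at and 0.129 times for 1387681_at. Differences from array a or from the 1-day mean therefore include a value under background. 1382958_at had an intensity of 822 on array a, 1770 on array b and 2650 on the 7-day array, with log2 values of 9.71, 10.80 and 11.38. The 7-day array stood 0.58 above array b, and 0.40 to 0.56 above it with quantile normalisation, median centring or removal of the intensity trend. In limma the difference was 1.12 ± 1.14 (SE) from the 1-day mean, with an unadjusted p of 0.325 and an adjusted p of 1.00. The second probe set, 1387681_at, read 245, 974 and 995, so it differed from array b by only 0.03, which became -0.01, -0.15 and -0.28 under those 3 settings in that order. The higher reading relative to array b thus rested on 1 of the 2 probe sets.

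Skeletal muscle markers were read beside Ucp3. Of 11 measured, 9 were above background on no array, against 27.3% of all genes, among them the creatine kinase gene Ckm at 349, 38.8 and 30.6 and the myoglobin gene Mb at 620, 32.3 and 253. The exceptions were Acta1, the skeletal actin gene, at 1000, 862 and 1109, and the probe set annotated to Myh1, at 144760, 47747 and 64328, which was bright where the other fast myosin genes Myh2 and Myh4 were not above background. Their part in the Ucp3 values was not tested.

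Ucp1 gave no signal above background. Its probe set 1387033_at read 156 on array a, 31.1 on array b and 35.1 on the 7-day array, or 0.0823, 0.0552 and 0.0464 times the background level. On those arrays 49, 43 and 53 of the 62 background probe sets were brighter. The log2 values were 7.43, 5.56 and 5.67, so array a read highest, as its background level did, and the difference of 0.12 between 7 days and array b lies below background on both.

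Ppargc1a and Dio2 were also not above background. The 3 Ppargc1a probe sets read 72.2, 11.6 and 323 (1370089_at), 222, 11.5 and 66.0 (1393743_at) and 1695, 89.0 and 32.1 (1395518_at) on array a, array b and the 7-day array. Against array b they stood at 3.62, 1.58 and -1.13 on the log2 scale, in both directions for 1 gene. Dio2 (1369778_at) read 171, 543 and 260, and on array b it lay just under the background level, at 0.963 times. With the 90th percentile of the panel as the level, or the brightest of 27 bacterial control probe sets with no rat target, Dio2 was above background on 1 array. At the 25th percentile of all gene probe sets, the lowest level tried, Dio2 was above on 2 arrays, Ppargc1a 1370089_at on the 7-day array and 1395518_at on array a, the last also at the array median. These 4 probe sets were under the filter for testing, and their differences are given as values without a test.

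**Figure D2:**
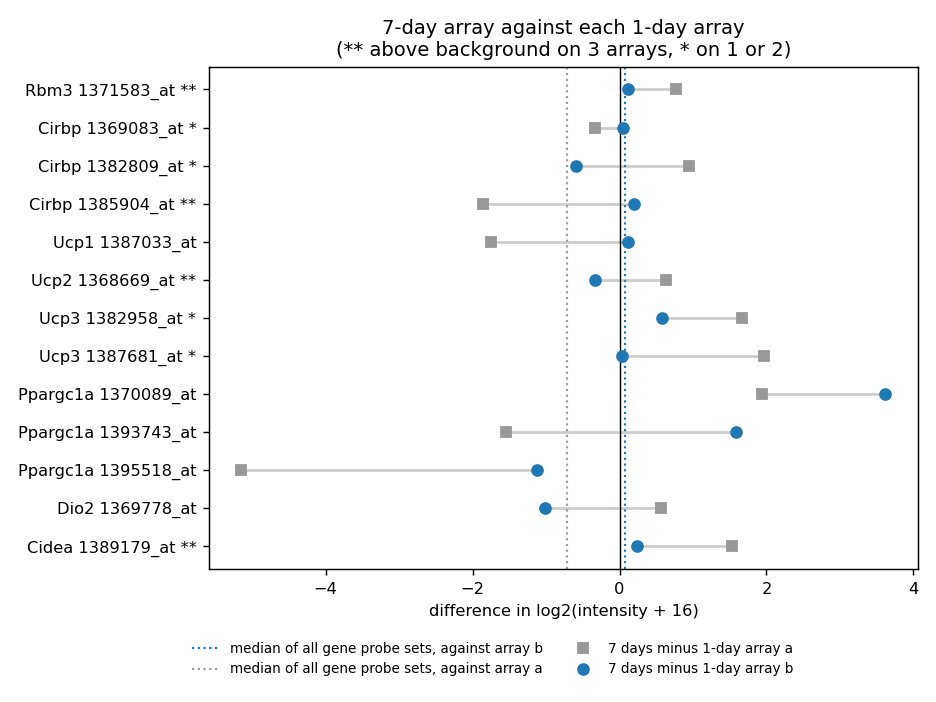
Difference in log2(intensity + 16) between the 7-day array and each 1-day array, for the 13 probe sets, with dotted lines at the median of all gene probe sets (0.08 against array b and -0.71 against array a). The points of a pair lie on opposite sides of 0 for 7 of the 13 probe sets, and the widest values belong to Ppargc1a, which was not above background.

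Cidea was bright in this tissue on all 3 arrays. Its probe set 1389179_at read 6291 on array a, 15428 on array b and 18241 at 7 days, at 3.31, 27.4 and 24.1 times background, and 62 of the 62 background probe sets were dimmer on each array. The log2 values of 12.62, 13.91 and 14.16 put the 7-day array 0.24 above array b and 1.53 above array a. In limma the difference from the 1-day mean was 0.89 ± 0.97 (SE; adjusted p = 1.00). The difference from array b was 0.06 with median centring, 0.25 with quantile normalisation and 0.26 without the intensity trend.

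Markers of fat cells were divided between bright and not detected. Of 17 measured, 9 were above background on no array, against 27.3% of all genes, and 4 on all 3 arrays, against 48.0% of all genes. Those on no array included the adiponectin gene Adipoq (1450, 274 and 409 on array a, array b and the 7-day array), the lipid droplet coat gene Plin1 (1510, 286 and 41.6), Cidec, a relative of Cidea (317, 14.8 and 16.5), Fabp4, a fatty acid binding protein gene (95.8, 555 and 65.3), and the brown fat genes Elovl3 (767, 18.2 and 41.2), Prdm16 and Ebf2. The 4 on all arrays were the lipase gene Lpl (9352, 30956 and 28980), Cox8b (6921, 7603 and 7260) and Cox7a1 (2688, 915 and 1401), subunits of cytochrome oxidase, and Cfd, which encodes adipsin (2196, 2976 and 2529). Lep and Adrb3 exceeded background on array a alone, Pparg on the 7-day array alone, and Cd36 on array b and the 7-day array. The summed intensity of the list was 33185, 47959 and 45719. The list was therefore mixed: in the order array a, array b and 7 days, Lpl stood at 4.92, 54.9 and 38.3 times background and Cox8b at 3.64, 13.5 and 9.59, while Adipoq stood at 0.763, 0.487 and 0.541. The part of fat cells in the Cidea values was not tested.

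**Figure D3:**
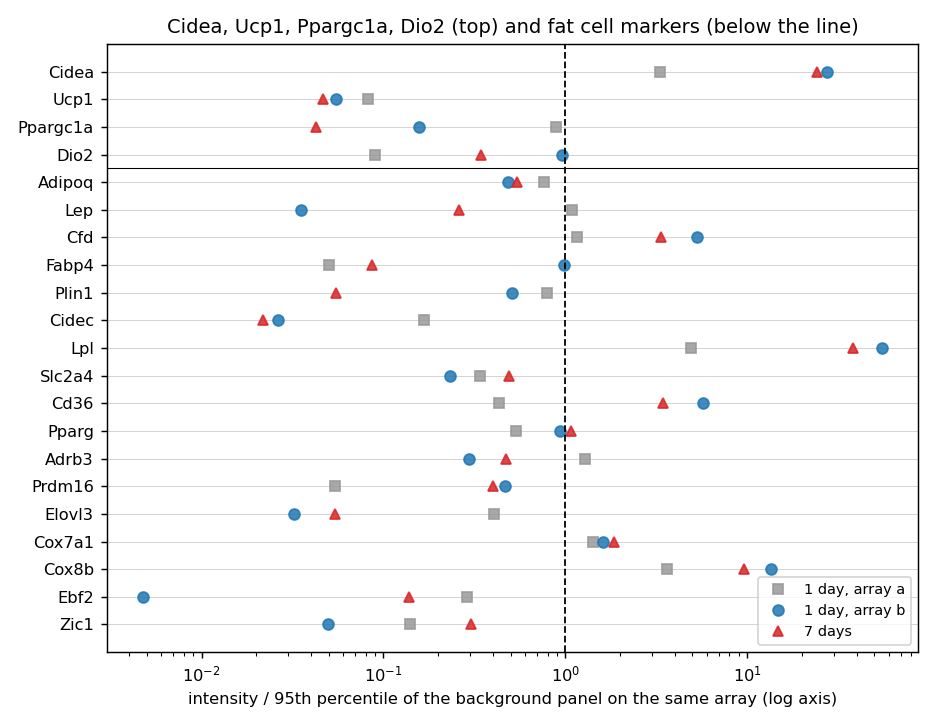
Intensity divided by the array's own background level (log axis, dashed line at 1) for Cidea, Ucp1, Ppargc1a, Dio2 and 17 fat cell markers, each by its probe set of highest mean. Cidea lies right of the line on all 3 arrays, with Lpl, Cox8b, Cox7a1 and Cfd, while Ucp1, Adipoq, Plin1, Cidec and Elovl3 lie left of it.

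Over the 13 probe sets, 0 of the 6 kept for testing passed limma at an adjusted p under 0.05, as did 0% of the 15521 tested (70 of them passed before adjustment), and among the 6 the lowest unadjusted p was 0.325. The other 7 were under the filter on mean level and are given as values only. The 7-day array read above both 1-day arrays on 5 of 13, where 18.8% of all gene probe sets did so, and below both on 1, where 27.6% did. The 5 were Rbm3, both Ucp3 probe sets, Cidea and Ppargc1a 1370089_at, and the 1 was Ppargc1a 1395518_at. The median difference was 0.12 against array b and 0.63 against array a. Over all gene probe sets it was 0.08 and -0.71, which median centring moved to -0.10 and 0.50. Over the 15521 kept for testing it was 0.0 and -0.1 before centring. With 1 array at 7 days none of these counts is a test of exposure time.

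**Figure D4:**
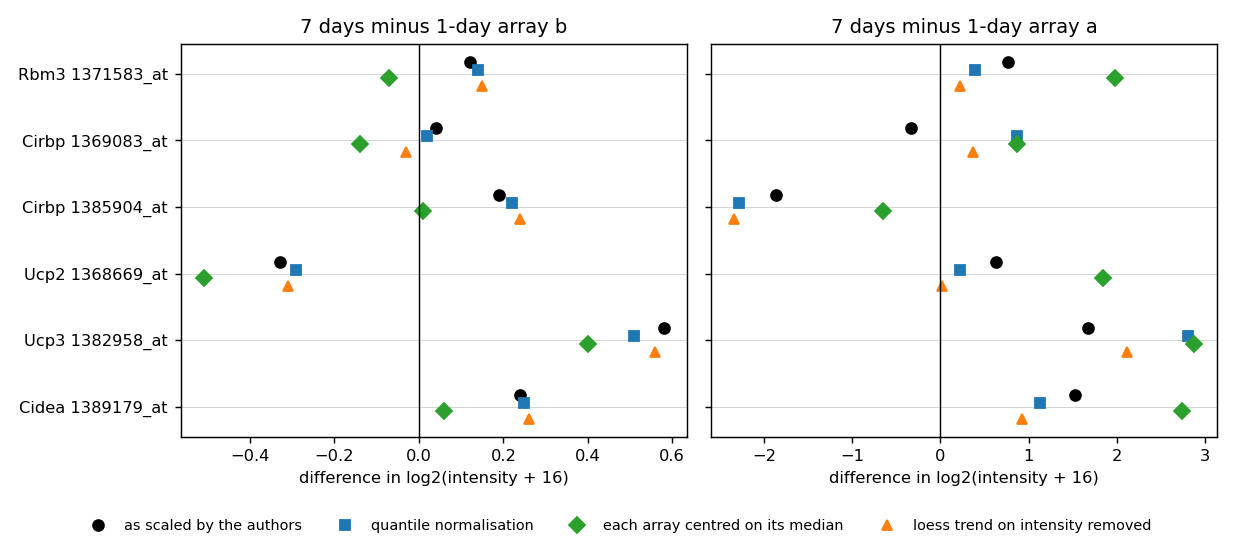
Difference in log2(intensity + 16) between the 7-day array and 1-day array b (left) or a (right) for the 6 tested probe sets, under 4 scalings. Ucp2, Ucp3 1382958_at, Cidea and Cirbp 1385904_at keep their sign on each side across the 4, while Rbm3 crosses 0 against array b with median centring and Cirbp 1369083_at crosses it on both sides.

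Other genes of the same pathways were read by the probe set of highest mean of each, and 0 members of any of the 5 lists passed limma. As background, the 7-day value lay above both 1-day values for 21.7% of all genes and under both for 26.5%. Among cold-shock domain proteins and partners of the cold-inducible proteins, 10 of 14 genes were measured, with 1 above both and 3 below both. Rtn3, whose translation RBM3 promotes, read 7991, 23084 and 22399 on array a, array b and the 7-day array, the temperature-responsive kinase gene Clk1 2529, 19517 and 16648, and the cold-shock domain gene Ybx3 3149, 9720 and 8409. Against array b the highest kept gene was the splicing factor gene Srsf10 (0.43) and the lowest Csdc2 (-0.43). The list's median was -0.08 against array b and 0.02 against array a.

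Of 6 mitochondrial carriers related to the uncoupling proteins, 3 read above both 1-day arrays and 1 below both, and 5 were above background on all 3 arrays, against 48.0% of all genes. Slc25a30 read 120540, 122537 and 150992, and the ADP/ATP carrier genes Slc25a5 and Slc25a4 read 6582, 45495 and 52169, and 8359, 33884 and 28813. Slc25a27, also called Ucp4, was above background on array a alone (2410, 277 and 741), so no difference between 7 days and array b was read from it. Slc25a14, also called Ucp5, was the lowest against array b, at -0.31. The list's median was 0.17 against array b and 0.64 against array a.

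Of 16 measured partners and targets of PGC-1alpha, 7 were above background on all 3 arrays, near the 48.0% of all genes. The nuclear receptor gene Ppard read 7115, 7637 and 10425, 0.45 above array b, and the AMP-activated kinase gene Prkaa1 4375, 4812 and 5191. Tfam, which maintains mitochondrial DNA, read 1756, 6624 and 6411, and Gabpa, a transcription factor of respiratory genes, was the lowest against array b, at -0.54. In all 2 of 16 were above both 1-day arrays and 3 below both, with medians of 0.07 against array b and -0.12 against array a.

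Among genes of thyroid hormone activation, transport and receptors, 1 of 13 measured read above both 1-day arrays and 5 below both. The receptor gene Thrb read 16250, 8647 and 8334, Usp33, whose product removes ubiquitin from the DIO2 enzyme, 1985, 12631 and 13720, and the corepressor gene Ncor1 2599, 5332 and 5230. The transporter gene Slc16a10 stood at -0.52 and Rxrg at 0.37 against array b. The list's median was -0.03 against array b and -0.42 against array a.

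Of 13 genes of the CIDE family and of lipid droplets, 2 read above both 1-day arrays and 4 below both, and 7 were above background on all 3 arrays, near the 48.0% of all genes. Mgll, a monoglyceride lipase gene, read 12912, 10484 and 9191, the droplet coat gene Plin2 6881, 13640 and 10373, and Abhd5, which activates triglyceride breakdown, 8925, 5729 and 5513. Pnpla2, the triglyceride lipase gene, stood at 0.17 and Plin2 at -0.39 against array b. Cideb, the other relative of Cidea, read 1154, 135 and 305 and was above background on no array, like Cidec. The list's median was -0.01 against array b and -0.50 against array a.

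The genes whose log2 values, centred over the 3 arrays, lay nearest to those of a member were Mtus1, Ube2l3 and Ppp1r14b for Rbm3, Wwc2, Pgpep1 and Ap5z1 for Cirbp 1385904_at, and Pprc1, Sfrp1 and Hspa1a for Ucp2. Their Euclidean distances were 0.006 to 0.016 on the log2 scale. Of 12053, 12052 and 12053 probe sets compared, 838, 177 and 485 lay within 0.2 of Rbm3, Cirbp and Ucp2. These profiles rest on only 3 arrays.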

How the data were processed

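Total RNA of 3 samples, grouped by their titles into 1 day (2) and 7 days (1) of cold, was measured on 1-colour arrays. The deposited values are linear intensities, 1 per probe set and array, already scaled by the authors: the mean without the top and bottom 2% was 2500.66, 2500.99 and 2501.03. The software that did this is not given in the sources used here. Gene comparisons left out 57 control probe sets. Of 31042 gene probe sets, 20826 have 1 symbol, 436 several and 9780 none, and 20758 symbols were updated through the RefSeq table of GRCr8, used for names only. Values became log2(intensity + 16), which shrinks differences of dim probe sets. The 15521 with a mean at or above the median were fitted across all with limma (lmFit, eBayes with trend, two-sided, Benjamini-Hochberg, threshold 0.05), leaving 1 residual degree of freedom. The prior was infinite, so each SE is derived from the spread fitted at that intensity and not from the probe set's own arrays. The 7-day array is assumed to vary like the others.

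The genes and lists, and the rule naming all 8 genes and, per pathway list, the 3 of highest mean and the extremes against array b (and, for Rbm3, Cirbp and Ucp2, the 3 nearest genes), were chosen with earlier results of these data known. Of the lists, genes not measured are left out. The same fit was also run on simulated arrays with known changes, and its recovery of them is not reported here. R 4.3.3, limma 3.58.1, Python 3.11.15 and matplotlib 3.10.9 were used.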

Additional observations from a re-analysis of the deposited data

How the results depend on the processing

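No member passed limma under any of the 9 alternatives (pseudocounts of 1 and 64, quantile normalisation, median centring, the intensity trend removed, a stricter filter at the 75th percentile, no filter, no trend in limma, robust limma), nor did any other probe set, so this says nothing about stability. Without 1-day array a or b there is no residual degree of freedom and no test. No paired analysis was possible because the groups share only replicate letter a. The count above both 1-day arrays was 5, and 3 with median centring; above the remaining 1-day array alone it was 8 to 9. The count below both was 1, 2 with quantile normalisation and 2 with median centring, and 4 to 5 below the remaining array. Above background on all arrays there were 4, and 4 to 7 when a 1-day array was left out, 7 without array a; the other levels tried, one of them (the bacterial controls) and the removal of the intensity trend added after the data were seen, kept the count within 1.5 times. Of 108 single differences from the 1-day mean under an alternative, 100 kept their direction or moved by less than the 1-day spread and 8 turned. Direction was judged only for the 6 tested probe sets, and the other 7 by the size of the move. Leaving out a 1-day array cannot move them beyond that spread, and a changed filter leaves every difference as it was, so those rows could not fail. Sign changes among the 7 were therefore counted in the 100. Dio2 (-0.23) became 0.34 with quantile normalisation, 0.29 with median centring, 0.36 with the intensity trend removed and 0.56 without array b. Without array a, Ucp1 (-0.82) became 0.12 and Cirbp 1382809_at (0.18) became -0.59. Ppargc1a 1393743_at (0.02) became -0.18 with a pseudocount of 64 and -1.54 without array b. The 8 that turned are thus those of the tested probe sets only. Cirbp 1369083_at (-0.15) became 0.44 with quantile normalisation, 0.36 with median centring and 0.17 with the intensity trend removed, and ran from -0.34 to 0.04 with 1 array left out. Cirbp 1385904_at (-0.83) ran from -1.86 to 0.19. Ucp2 (0.15) became -0.03 with quantile normalisation and -0.14 with the trend removed, and ran from -0.33 to 0.63. The cause was not tested. The number of arrays and the raised background of array a limit every value.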
